A study of Mus musculus with 2 samples.

Results

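Glypicans are heparan sulfate proteoglycans held at the cell surface by a glycosylphosphatidylinositol anchor. Their sulfated sugar chains bind growth factors and morphogens such as Wnt, Hedgehog and FGF proteins, and so tune how a cell receives these signals. Gpc5 encodes glypican 5, which can carry chondroitin sulfate as well as heparan sulfate chains, and Gpc6 encodes glypican 6, which takes part in Hedgehog signalling in growing bone. The genes are neighbours on mouse chromosome 14. The family is of interest in liver cancer because another member, Gpc3, is a marker of hepatocellular carcinoma (HCC). KLF6 is a DNA-binding protein with zinc fingers and belongs to the Krüppel-like factors, which bind GC-rich and CACCC-type sequences.

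The data are KLF6 binding sites from chromatin immunoprecipitation followed by sequencing (ChIP-seq) in a mouse HCC cell line. The cells had been transfected with a plasmid that encodes full-length KLF6 with a V5 tag in frame, DNA was pulled down through the V5 tag, and DNA of such cells without pull-down (input) served as the control. There was 1 ChIP and 1 input sample, each sequenced in replicate experiments. The authors' list for experiment 1, which pools 2 runs, has 742 sites, and their list for experiment 2 has 901. A mock pull-down, from cells that lack V5-KLF6, was not analysed here. The labels give neither the name of the line nor the level of tagged KLF6 beside the cells' own.

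The sites described are those that the lists assign, by gene symbol, to Gpc5 or Gpc6. There were 7 of 1643 in all, namely 6 in experiment 1 and 1 in experiment 2. The genes were chosen by the number of their sites in experiment 1, of which Gpc6 had several, so these numbers and the values of the sites are given as a description, with no test. Because each list holds 1 merged comparison of ChIP with input, no value carries a spread between replicates. Both genes lie on the forward strand in build mm9. Gpc5 (ENSMUSG00000022112) spans chr14:115491848-116923659, which is 1.43 Mb, and Gpc6 (ENSMUSG00000058571) spans chr14:117325158-118378742, which is 1.05 Mb. A gap of 401 kb separates them, in which a RefSeq gene table of assembly GRCm38.p6 lists 3 genes, 1 lncRNA gene and 2 pseudogenes.

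No site of either list came near the start of either gene. The summit closest to the Gpc5 start lay 317 kb away in experiment 2 and 429 kb away in experiment 1. The summit closest to the Gpc6 start lay 316 kb away in experiment 1 and 1517 kb away in experiment 2. The sequence just before the Gpc5 start is shown because it holds letters of the kind that KLF proteins bind, although neither list has a site there. It is from RefSeq, build GRCm38.p6, forward strand, chr14:115091965-115092214, positions that are not those of mm9. It gives the 250 bases before the transcript start, with 3 matches in capitals, 1 to GGGCGG and 2 to GGGNGTGG.
Gpc5 promoter: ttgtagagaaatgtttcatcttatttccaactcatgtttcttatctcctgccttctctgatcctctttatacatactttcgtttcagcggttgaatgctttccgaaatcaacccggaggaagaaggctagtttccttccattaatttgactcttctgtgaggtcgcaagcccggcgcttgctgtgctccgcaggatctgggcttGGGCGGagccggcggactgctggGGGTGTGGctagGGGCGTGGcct
Both motifs were searched on both strands, and the 3 matches do not overlap each other. The matches to GGGNGTGG read GGGTGTGG and GGGCGTGG and begin 23 and 11 bases before the transcript start, and GGGCGG begins 46 bases before it. Of 32851 promoters of this length in the table, 15.9% held GGGNGTGG, 2.81% held it at 2 or more places, and 32.7% held GGGCGG. A match of letters is a description and not a measured binding site. The promoter of Gpc6 was not used here. The sequence under the 7 sites was not used either, as no genome of build mm9 was at hand.

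Inside Gpc5, experiment 1 had 3 sites, all of low enrichment. The lists give for each site the tags (sequenced DNA ends counted in it, in a library the lists do not name), the fold enrichment (a ratio, read here as ChIP over expected background), a score (−log10 of the p-value, times 10) and a false discovery rate (FDR, a percent that ends at 100%). The first, chr14:115920444-115920923, lay 429 kb into the gene, at 30.0% of its length, with 16 tags (exact Poisson 95% interval 9.15 to 26.0, counting error only), 6.66-fold, a score of 52.7 and an FDR of 100%. The second, chr14:116016940-116017594, lay 96.5 kb further on, at 36.7% of the length, with 22 tags (13.8 to 33.3), 6.62-fold, a score of 54.6 and an FDR of 100%. These 2 sites were nearly equal in fold, and both were under the median of all 742 sites of the list, 7.17-fold. They ranked 566 and 481 by score, so neither stood out from the bulk of the list.

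The third site inside Gpc5, chr14:116422782-116423323, carries the name of Gpc6 in the list. Its summit lay 931 kb from the Gpc5 start, at 65.0% of the length of Gpc5, and 501 kb before the end of that gene. The start of Gpc6 was 902 kb away, so the name given is that of the gene with the nearer start of the 2. Whether the list assigns every site in this way was not checked. The site had 19 tags (11.4 to 29.7), a score of 52.4 and an FDR of 100%, and at 5.04-fold it was the least enriched of the 6. By position, then, Gpc5 held 3 sites of experiment 1 and Gpc6 held 2, while by name Gpc5 had 2 and Gpc6 had 4. Summits that lay outside the assigned gene but inside another gene named in either list were few, 9 of 742 in experiment 1 (1.21%) and 14 of 901 in experiment 2 (1.55%). These are lower limits, because the spans of genes that neither list names were not used.

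Experiment 2 had 1 site inside Gpc5 and none that it assigned to Gpc6. That site, chr14:115808411-115808648, lay 317 kb into the gene, at 22.1% of its length. It had 9 tags (4.12 to 17.1), the lowest number of any site in the list and one it shared with 106 others, a score of 50.7 against a lowest deposited score of 50.02, and an FDR of 100%. It was thus close to the limit at which sites were still listed, and the tag intervals take no account of such a limit. Its 10.4-fold enrichment was near the median of experiment 2, 10.0-fold. That value cannot be set against the 6.66-fold of experiment 1, since each fold belongs to its own list and the medians of the lists differ.

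The 3 other sites assigned to Gpc6 in experiment 1 were the more enriched ones. The site with the highest fold of all 7, chr14:117008378-117008983, lay in neither gene. It was 85.1 kb past the end of Gpc5 and 316 kb before the start of Gpc6, with 31 tags (21.1 to 44.0), 15.5-fold, a score of 128 and an FDR of 26.3%. Inside Gpc6, chr14:117749308-117750047 lay 425 kb into the gene, at 40.3% of its length, with 35 tags (24.4 to 48.7), 14.35-fold, a score of 114 and an FDR of 46.7%. The last site, chr14:117785312-117786085, lay 36.0 kb further on, at 43.7% of the length, with 46 tags (33.7 to 61.4), 13.0-fold, a score of 159 and an FDR of 4%. The order of these 3 by fold was not their order by tags or score, and their tag intervals overlap. The interval of the site with 46 tags lay above those of all 3 sites inside Gpc5, whereas the intervals of the sites with 31 and 22 tags overlap. Sites so close together were uncommon in experiment 1, where 26 of 722 gaps between successive sites of a chromosome (3.6%) were 40 kb or less and the median gap was 1896 kb. The bound of 40 kb lies just above this gap of 36.0 kb, which was the shortest between glypican sites of experiment 1. Exon positions in mm9 were not used here, so the sites inside the genes are not placed on exons or introns.

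**Figure D1:**
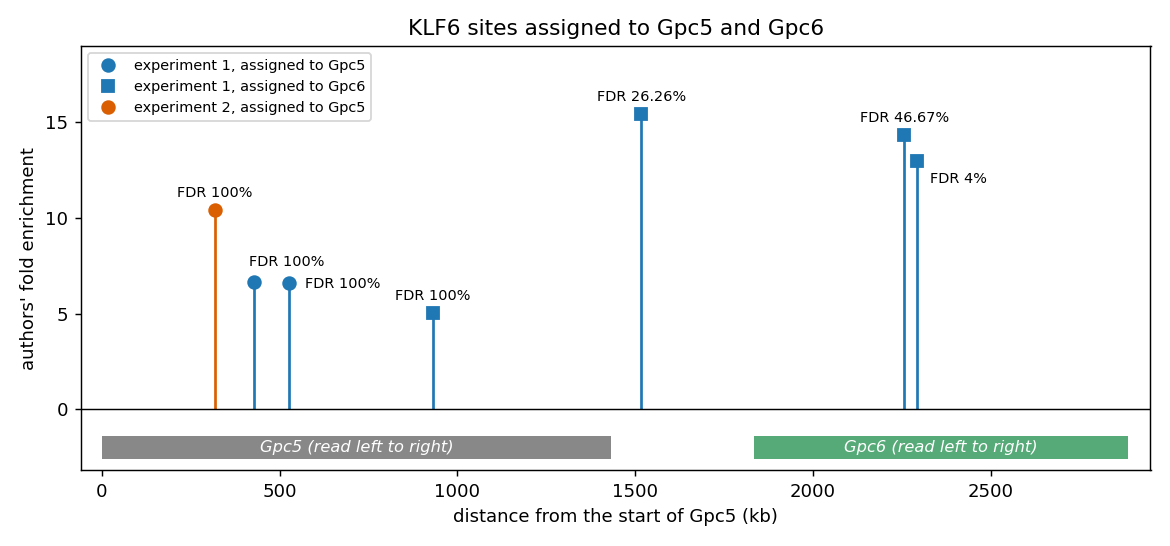
The horizontal axis gives the distance from the Gpc5 start in kb and the height of each line the authors' fold enrichment, with bars under the axis for the spans of both genes, circles for sites assigned to Gpc5 and squares for sites assigned to Gpc6. The sites inside Gpc5 in experiment 1 stand at 5.04-fold to 6.66-fold, the leftmost square lies over the Gpc5 bar, and the other 3 squares stand at 13.0-fold to 15.5-fold.

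Within experiment 1 the 6 sites thus fell into a weaker and a stronger set. The 3 stronger sites ranked 75, 99 and 120 of 742 by score and 108, 69 and 84 by fold, from the site with the FDR of 4% to the intergenic site and the first site inside Gpc6. The 3 weaker sites ranked between 481 and 588 by score and between 420 and 687 by fold. The median fold of the 6 was 9.81 and their median tag number was 26.5, against 7.17-fold and 21 tags over the list. Over the 5 sites that lay inside either gene by position, the median was 6.66-fold, under that of the list. An FDR under 100% was given to 3 of the 6 sites, and to 158 of all 742 (21.3%). An FDR of 5% or lower was given to 1 of the 6, and to 61 of all 742 (8.22%). The stronger sites were also wider, at 605, 739 and 773 bp (end minus start) against 479, 654 and 541 bp for the weaker, with 1 weaker site above the narrowest stronger one and a list median of 554 bp.

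**Figure D2:**
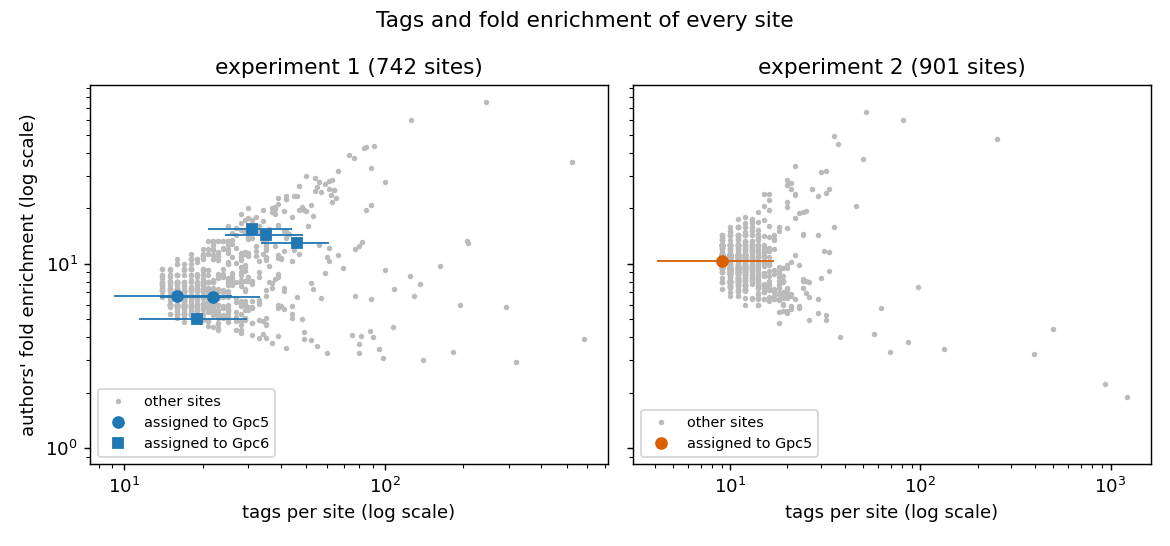
Each panel plots 1 experiment, with tags per site on the horizontal and the authors' fold enrichment on the vertical axis, both on log scales, grey points for other sites and horizontal bars for the exact 95% Poisson intervals of the tags. In experiment 1 the 3 stronger sites (31 to 46 tags) stand apart from the 3 weaker ones (16 to 22 tags), and in experiment 2 the Gpc5 site stands at the left edge with 9 tags.

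Far from gene starts as they were, the sites still lay within genes more often than not. The list marks 4 of the 6 sites of experiment 1 as inside the assigned gene, against 99 of 742 in that list (13.3%), and the 1 site of experiment 2 is so marked too, against 166 of 901 (18.4%). Every one of the 7 summits lay over 300 kb from the start of its assigned gene. In experiment 1 this held for 112 of 742 sites (15.1%) and for 8 of the 99 sites inside their gene (8.08%), 4 of which are the glypican sites. In experiment 2 it held for 90 of 901 sites (9.99%) and for 7 of the 166 inside their gene (4.22%). The bound of 300 kb was set after the distances were seen. Gpc5 and Gpc6 ranked 5 and 13 by span among the 1330 genes named in either list. The shares over the lists are thus mostly of sites at shorter genes. A gene shorter than 300 kb cannot hold a summit that lies over 300 kb from its start. Whether gene length bears on the share inside genes was not tested.

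None of the 7 sites was found by both experiments. With sharing taken as an overlap of at least 1 bp, 0 of the 6 sites of experiment 1 overlapped a site of experiment 2, against 109 of 742 over the list (14.7%), and the 1 site of experiment 2 was not shared either, against 112 of 901 (12.4%). The smallest distance between the lists was 112 kb, from the experiment 2 site to the first site of experiment 1 inside Gpc5. The stronger sites were further off, with 1200, 1941 and 1977 kb to the nearest summit of experiment 2. At the gene level, Gpc5 had a site in each list and Gpc6 in experiment 1 alone.

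How often sites of like rank were shared differs much between the weaker and the stronger set. Of the 100 sites of experiment 1 at score ranks 51 to 150, the range that holds the 3 stronger glypican sites, 42 (42.0%) overlapped experiment 2. At ranks 451 to 600, the range of the 3 weaker ones, 3 of 149 (2.01%) did. Among the 61 sites whose FDR was 5% or lower, sharing was found for 42 (68.9%) and not for 19 (31.1%), and the site inside Gpc6 at 13.0-fold belonged to the latter. Among the 633 unshared sites of experiment 1, the 3 stronger sites ranked 18, 35 and 48 by score and 40, 15 and 26 by fold, in the same order as above. In experiment 2 the lowest FDR of any site was 20%, so sharing is with a list in which no site reached 5%. No read totals were at hand, so whether experiment 2 had the depth to list these sites was not tested.

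**Figure D3:**
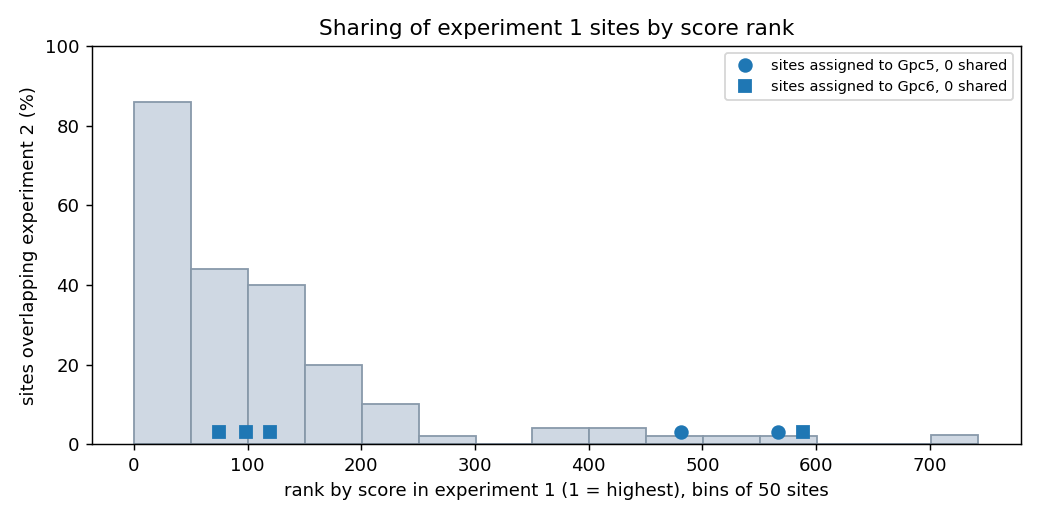
Bars give the percent of experiment 1 sites that overlap a site of experiment 2, in bins of 50 sites by score rank (the last bin has 42), and the symbols near the axis mark the ranks of the 6 glypican sites, whose height carries no value. The 3 sites at ranks 75 to 120 stand in bins where 22 and 20 of 50 sites were shared, and the 3 others in bins where 1 of 50 was.

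The stretch from the start of Gpc5 to the end of Gpc6, 2.89 Mb long, held all 6 sites of experiment 1 and 1 site of experiment 2, that is 2.08 and 0.346 sites per Mb. Chromosome 14 between its outermost sites had 0.307 per Mb in experiment 1 and 0.338 in experiment 2, with 36 sites in each list. Windows of the same length centred on each site give a measure of how common such groups were. They held a median of 2 sites in both experiments, and at least 6 in 59 of 742 windows of experiment 1 (7.95%) and 10 of 901 of experiment 2 (1.11%). The fullest window of experiment 1 held 9 sites. In 24 of the 59 windows, at most 1 site of experiment 2 was present, as here. Such windows overlap, so these counts are not of separate places. The stretch was itself set by genes chosen for their sites in experiment 1, so a high density of that list there is partly given by the choice.

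The gap before this stretch in experiment 1 was longer than the list's median gap of 1896 kb, and the gap after it was shorter. The nearest site before it lay 4452 kb from the first Gpc5 site (chr14:111468668-111469061, assigned to ENSMUSG00000060796, 14 tags, 7.99-fold, FDR 100%). The nearest one after it lay 1648 kb from the last Gpc6 site, inside ENSMUSG00000042104, the gene for UDP-glucose glycoprotein glucosyltransferase 2, a sensor of misfolded glycoproteins (chr14:119433104-119433694, 29 tags, 6.01-fold, FDR 100%). In experiment 2 the site before the one in Gpc5 lay 729 kb away and was assigned to ENSMUSG00000065508, described as mmu-mir-17, a microRNA gene of a cluster known for its role in tumours (chr14:115079269-115079566, 10 tags, 9.27-fold, FDR 100%). It was 363 kb upstream of that gene and 412 kb before the start of Gpc5. No site of experiment 2 followed the one in Gpc5 on the chromosome.

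The counts can also be set beside gene length, and whether length bears on them was not tested. Of the 1330 genes named in either list, 14 spanned over 1 Mb, and Gpc5 and Gpc6 ranked 5 and 13 among all by span. In experiment 1, 13 summits lay inside the 14 long genes, 0.658 per Mb, and 9 of these genes held at least 1. These totals include Gpc5 and Gpc6 themselves, so the rate over the other long genes was lower. Gpc5 with 3 summits (2.10 per Mb) and Gpc6 with 2 (1.90 per Mb) had the most per Mb of the 14. The next was ENSMUSG00000060924 with 2 (1.22 per Mb), and no other held more than 1. In experiment 2 the long genes held 7 summits, 0.354 per Mb, with 7 genes at 1 each, among them Gpc5 (0.698 per Mb) but not Gpc6. Dmd, the dystrophin gene, and Cntnap2, a neuronal adhesion gene, were longer than either glypican gene and held 1 summit in each experiment. Long genes that neither list names are not in these counts, and each of the 14 is there because it was assigned a site. Gpc5 and Gpc6 were moreover chosen by their sites in experiment 1, so their high place in that list is no independent result.

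**Figure D4:**
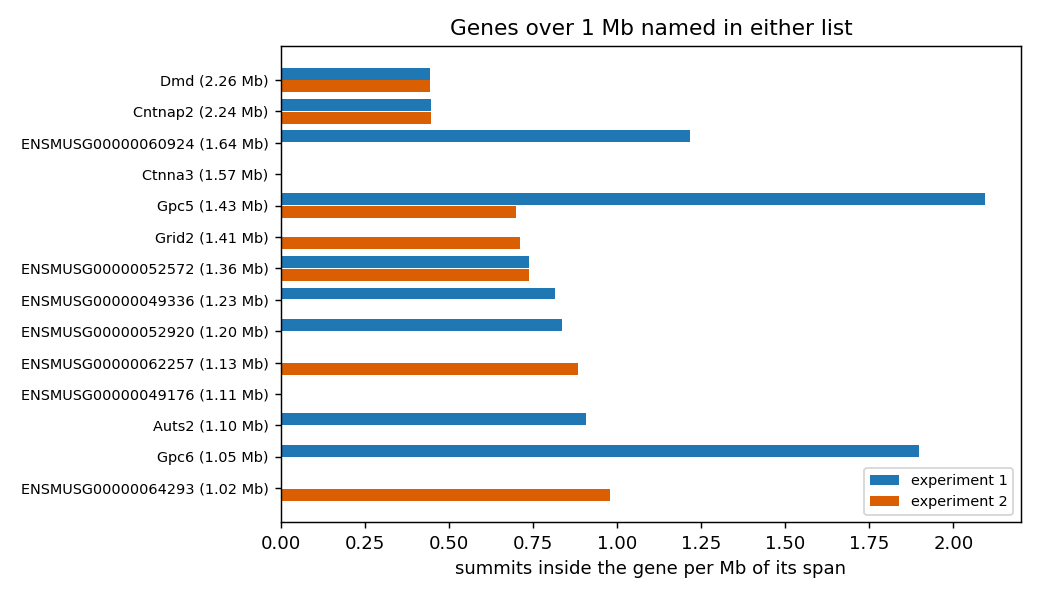
For the 14 genes over 1 Mb named in either list, ordered by span, bars give the summits inside the gene per Mb of its span in experiment 1 (upper bar) and experiment 2 (lower bar), and a missing bar stands for 0. Gpc5 (2.10) and Gpc6 (1.90) have the longest bars of experiment 1, whereas in experiment 2 Gpc5 stands at 0.698, among the others, and Gpc6 at 0.

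By number of assigned sites, 1 other gene with a symbol matched Gpc6 in experiment 1, out of 276 distinct symbols. It was Olfr136, an olfactory receptor gene on chromosome 17, also with 4 sites in experiment 1 and none in experiment 2. Over all 653 assigned genes of experiment 1, with or without a symbol, 3 had at least 4 sites (0.459%). The sites of Olfr136 lay within 266 kb of each other, all downstream of the gene and 102 kb to 368 kb from its start, whereas those assigned to Gpc6 ran over 1363 kb. Their folds went from 3.29 to 7.33 and each had an FDR of 100%, against 5.04 to 15.5 and FDR values down to 4% for Gpc6. None of the 4 was shared, as at Gpc6.

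The other genes of the heparan sulfate pathway were looked up in the same way. They came from a list of 44 genes, grouped by whether they build, carry, modify, or release and trim these chains. A site in either list was assigned to 5 of the 44 (11.4%), of which 2 are Gpc5 and Gpc6. Without them 3 of 42 remain (7.14%), and 487 of the 21900 protein-coding genes of the RefSeq gene set had a site (2.22%). With 3 genes, the share rests on very few sites. In experiment 1, Gpc5 and Gpc6 were the sole members with a site, and they were chosen for their sites in that list. Without them 0 of 42 had one, against 227 of 21900 genes (1.04%). In experiment 2 there were 4 members, namely Gpc5, Sdc1, Ndst4 and Hs3st5. Without the glypican genes this was 3 of 42, against 315 of 21900 (1.44%). These 3 genes span 21.7 kb (Sdc1), 287 kb (Ndst4) and 328 kb (Hs3st5), and the shares take no account of gene length. Symbols are present at 41.4% (experiment 1) and 42.6% (experiment 2) of sites, so these are lower limits. A search of the gene descriptions for glypican, syndecan, heparan, heparin and exostos found no further gene. These words do not name every gene of the list, for example agrin and Notum, and some sites have no description. The search therefore does not lift the limit, and a gene without a site below is one without a site under its symbol.

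Among the core proteins that carry the chains, Gpc1, Gpc2, Gpc3 and Gpc4 had 0 sites in both lists. Sdc1, which encodes the transmembrane proteoglycan syndecan 1, had a site 24.1 kb upstream of its start in experiment 2 (chr12:8753948-8754312, 14 tags, 11.6-fold, score rank 110 of 901, FDR 100%). It was the best-ranked of the 4 pathway sites of that list. The other 3 syndecans and the 3 matrix proteoglycans, perlecan (Hspg2), agrin (Agrn) and collagen XVIII (Col18a1), had none by symbol. The 10 enzymes that link and polymerise the chains, such as Ext1 and Ext2, had no site by symbol either.

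Of the 16 enzymes that modify the chains, 2 had a site by symbol. Ndst4, an N-deacetylase and N-sulfotransferase that acts on the growing chain, had one inside the gene, 17.1 kb from its start (chr3:125157503-125157754, 9 tags, 12.7-fold, score rank 795 of 901, FDR 100%). Hs3st5, a 3-O-sulfotransferase, had one 150 kb upstream (chr10:36076051-36076345, 10 tags, 9.56-fold, score rank 631 of 901, FDR 100%). The 5 genes that the list groups under release and trimming, the sulfatase genes Sulf1 and Sulf2, the heparanase genes Hpse and Hpse2, and Notum, had 0 sites by symbol. None of the sites at Sdc1, Ndst4 and Hs3st5 was shared, and the nearest site of experiment 1 was 216, 4229 and 4393 kb away. As at Gpc5 in the same list, an FDR of 100% stood beside each, and 29 of all 901 sites of experiment 2 had a lower one (3.22%). The lowest FDR of that list was 20%.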

How the data were processed

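The authors deposited 2 annotated lists of KLF6 sites, each from 1 comparison of ChIP with input, with no values per library. Per the submitters' processing notes, MACS 1.3.6 and build mm9 were used, with no role stated for either. Aligner and parameters: not given in the sources used here. Read totals were not at hand, so depth is unknown. Per the file headers, the lists give a tag count for each site, a score of 10 times the −log10 p-value, a fold enrichment (a ratio) and an FDR in percent. These deposited values were used as they stand, within a list.

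Sites of Gpc5 and Gpc6 were taken by symbol, and the lists' own gene spans gave positions inside genes. Sites were shared when at least 1 bp overlapped. Ranks give tied sites the best rank. Poisson intervals are exact at 95%. The overlap, distance, window and motif steps were tested on simulated data. Named genes were Gpc5, Gpc6, pathway genes with a site, genes with as many experiment 1 sites as Gpc6, and genes of the flanking sites. ENSMUSG00000060924, Dmd and Cntnap2 and the pathway genes without a site were named after their values were seen. Both glypican genes and all 44 pathway genes matched the RefSeq table by symbol, and promoter motifs were searched in its sequences. The genes, list and alternatives were chosen with earlier results of these data known. Python 3.11.15, pandas 2.3.3, scipy 1.17.1 and matplotlib 3.10.9 were used.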

Additional observations from a re-analysis of the deposited data

How the results depend on the processing

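Of 22 alternatives, 14 kept their count within 1.5 times or their median fold within 1 SD of the glypican sites, and 8 moved. Some of the 14 could not have moved, as given below, so their number is no measure of stability. Of the 22, 21 were set with earlier results of these data known, and 1, the search of descriptions, was chosen after seeing the lists themselves. With sites at or above the median score of the list, or with an FDR under 100%, 3 sites of experiment 1 and 0 of experiment 2 were left. At or above the median score, 2 sites lay inside the assigned gene in place of 5, and 2 pathway genes had a site in place of 5. These follow from fewer sites being counted. Leaving out an experiment, sites inside the assigned gene numbered 1 to 4 and pathway genes with a site 2 to 4. The median fold of experiment 1 was 9.81, 6.66 over sites inside either gene by position and 14.35 over sites at or above the median score. The value by position was under the list median of 7.17 and the others were above it, although all were within the 1 SD allowed. That SD is wide, since it spans the weaker and the stronger set. The count of shared sites was 0 under each overlap or distance tried. It could not have moved, since no site overlapped by even 1 bp and the closest summits of the lists lay 112 kb apart. These settings therefore say nothing on how stable that count is. The median fold of experiment 2 by position could not move either, as it rests on the same 1 site. At or above the median score it has no value, since no site was left. No paired analysis was possible because each group has 1 sample and the lists hold no values per library.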

Other observations

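The descriptions of the lists were also searched for other genes of sulfated sugar chains (the words sulfat, proteoglycan link and N-acetylglucosamino sulfotransferase), a search chosen after the values were seen. Besides Hs3st5 it found 5 genes, each with 1 site, an FDR of 100% and no overlap with the other list. Most sites are like this. An FDR under 100% was given to 21.3% of sites in experiment 1 and 3.22% in experiment 2, and 14.7% and 12.4% overlapped the other list. How many genes in all have such a description was not counted, so no share stands beside the 5. In experiment 1, Chst7, a chondroitin sulfotransferase gene, had a site inside it (19 tags, 6.41-fold), and Dsel, a dermatan sulfate epimerase gene, had one 498 kb upstream (17 tags, 7.17-fold). In experiment 2, Papss1, which makes the sulfate donor of all these sulfotransferases, had a site 163 kb from its start, downstream of the gene (15 tags, 10.2-fold). Arsb, a lysosomal sulfatase gene, had a site inside it (10 tags, 11.1-fold), and Hapln1, which encodes a link protein of hyaluronan and proteoglycans, had one 124 kb upstream (16 tags, 12.2-fold).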
